A study of Mus musculus with 8 samples.

Results

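Among the oligonucleotide probes of a mouse expression array, 2744 carried no transcript name, because the name that the array file gives for the target was only the identifier of the probe itself. They were found by that rule alone among 55681 distinct non-control probes (4.93%), and each had a single spot. Most had an identifier beginning with A_55 (2701 probes), 40 began with A_66, 2 with A_52 and 1 with A_65. The arrays measured RNA of 8 single whole mouse embryos at embryonic day 8.5, to ask whether a father's *Eed* genotype was associated with expression in offspring. *Eed* encodes a core protein of Polycomb Repressive Complex 2, which places the repressive H3K27me3 mark. The 4 HOM father embryos were sired by males homozygous for the hypomorphic Eedl7Rn5-1989SB allele and the 4 HET father embryos by heterozygous males, all on a C57bl6/129 background. In every mating the mother was wild type, every embryo in both groups was itself heterozygous, and each group held 2 female and 2 male embryos. The fathers came from a few littermate pairs, so that some embryos shared a sire and are not independent fathers.

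A probe of this kind is a long single-stranded DNA printed on glass, and it reports whatever labelled cRNA binds to it. Without a transcript name neither the gene nor the strand it was designed for can be read from the file, and its letters were not analysed here. Mammalian genomes hold many retroposed copies of messenger RNAs, made when the reverse transcriptase of LINE-1 elements copies a transcript back into DNA. Genes with abundant messages, such as those for ribosomal proteins, have the most copies. A copy can be nearly identical to its parent gene, so that 1 probe may bind the RNA of both, and the signal of such a probe cannot be divided between them.

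The arrays were checked before the members were examined. The *Eed* probe differed by 0.01 on the log2 scale between the groups, with means of 4.72 ± 0.06 with HOM fathers and 4.71 ± 0.05 with HET fathers (SD, n = 4). *Xist* and the Y-linked *Ddx3y* and *Eif2s3y* were each well above background on 4 of the 8 arrays, with *Xist* low in the labelled males and the Y-linked genes low in the labelled females. All 15 marker genes of embryonic neural, mesodermal, heart, primitive erythroid and yolk sac endoderm cells were well above background on all arrays. Of the 3 trophoblast and decidua markers with a probe, *Prl8a2* and *Prl3d1* each had a probe detected on all arrays, and *Tpbpa* was detected on none. Another *Prl3d1* probe, A_66_P115038, was well above background on 5 of the 8 arrays. The summed level of these markers, as a multiple of the array's 75th percentile signal, ran from 1.73 to 24.2 with HOM fathers and from 0.210 to 5.03 with HET fathers. The arrays of the father groups lay on 1 slide each, so that slide and father cannot be told apart in any father difference below.

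The members fell towards both ends of the signal range. Signal is given as log2 of the processed intensity minus the array's 75th percentile, so that 0 is brighter than 3 in 4 probes of the array. Averaged over the 8 arrays, the members ran from -7.27 to 8.09, with a median of -5.97 and quartiles at -7.03 and -0.22. The 26536 probes named by a curated RefSeq messenger RNA (NM_ probes) had a median of -1.496 and quartiles at -5.74 and 1.62. Below -6 lay 1362 members (49.6%) and 6259 NM_ probes (23.6%). Between -6 and 2 lay 836 members (30.5%) but 14504 NM_ probes (54.7%). At 2 and above the shares were alike, at 546 members (19.9%) and 5773 NM_ probes (21.8%). The top of the range was again fuller among the members, with 200 (7.29%) at 6 or above compared with 522 NM_ probes (1.97%). These are counts of probes on the same arrays and not of independent samples.

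The 5 members with the highest mean signal were A_55_P2090953, A_55_P1962466, A_55_P2005343, A_55_P2186787 and A_55_P2063471. A_55_P2090953 averaged 8.09, with single arrays from 7.98 to 8.20. A_55_P1962466 averaged 8.08 (7.94 to 8.26) and A_55_P2005343 averaged 8.05 (7.86 to 8.30). A_55_P2186787 averaged 8.01 (7.88 to 8.11) and A_55_P2063471 averaged 7.99 (7.75 to 8.16). The arrays of both father groups overlapped for 4 of these probes. Only for A_55_P2005343 did every HOM father array, the highest at 8.04, lie below every HET father array, the lowest at 8.05. Of all tested probes, 13.0% lay wholly below in this way. The difference of A_55_P2005343 was -0.26 (limma adjusted p = 0.0366), and -0.13 with normexp background correction (limma adjusted p = 0.201). No member at 6 or above was called by father, and their median absolute difference of 0.13 was close to the 0.12 of NM_ probes in that range.

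Fewer members than NM_ probes were well above background, the call that the scanner software makes for each spot. With HOM fathers 49.0%, 44.6%, 44.4% and 45.3% of members were well above background on replicates 1 to 4, and with HET fathers 46.1%, 43.5%, 41.4% and 41.7%. The groups overlapped, and the first replicate of each group was the highest. NM_ probes ran from 70.4% to 74.95% with HOM fathers and from 68.6% to 73.9% with HET fathers. On all 8 arrays 1057 members (38.5%) were well above background, on none 1168 (42.6%), and on some 519. The corresponding shares of NM_ probes were 66.2% on all and 20.5% on none. Counted probe by probe, 321 members (11.7%) were well above background on more HOM than HET father arrays, 130 (4.74%) on fewer, and 2293 were level. Over all 55681 probes the shares were near those, at 10.4% on more and 5.22% on fewer, and for NM_ probes they were 6.88% and 3.60%.

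The filter on low values, which asked for a signal well above background on at least 4 arrays, kept 1198 members (43.7%) and 18785 NM_ probes (70.8%) among 29717 tested probes. The other 1546 members had no test. Of the 1198, 4 had passed through HOM father arrays alone and none through HET father arrays alone. Those 4 were A_55_P2170599, A_55_P2034049, A_55_P1969242 and A_55_P2017001, and the last was named after its values were seen.

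In embryos of HOM fathers 50 members were higher and 1 was lower (limma, adjusted p below 0.01 over all tested probes, at least 2-fold). These were 4.17% and 0.0835% of tested members. Over all tested probes 1.24% were called higher and 0.0269% lower. For NM_ probes the counts were 76 higher (0.405%) and 5 lower (0.0266%). All 50 members called higher were well above background on every HOM father array, 30 of them also on every HET father array, 17 on 1 to 3 and 3 on no HET father array. Those 3 had entered the test through HOM father arrays alone, so that they had to differ, and 47 calls remain without them. Of the 51 calls, 47 were among the 1176 tested members with an A_55 identifier and 4 among the 21 with an A_66 identifier. The share called by identifier over all tested probes is not given here, so no difference between identifiers is read from these counts. For all 50 members the lowest HOM father array exceeded the highest HET father array, which the limits used to call them largely ensure. Over all tested probes this held for 14.1%. The count of members called lower moved to 5 with normexp background correction and to 10 with median scaling. The count called higher fell to 26 with normexp background correction, to 30 among probes detected on all arrays and to 32 without HET father replicates 3 and 4. It fell to 0 with the position of the array on its slide as a block, which left 2 residual degrees of freedom (426 members at an unadjusted p below 0.05 by limma).

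The rises were mostly of dim probes. The 50 members had a median difference of 1.55 on the log2 scale (2.92-fold), and 1.53 with the 3 undetected with HET fathers set at their limit. Differences ran from 1.01 to 2.83 for the 30 detected on all arrays and from 1.03 to 2.52 for the 17 detected on some HET father arrays. The median SD of these members within a group was 0.14 with HOM fathers and 0.21 with HET fathers. Their mean signals ran from -4.95 to 1.51, with 46 of the 50 below 0 and a median of -3.14, at the 21.0th percentile of tested members. A further 118 members were higher at an adjusted p below 0.01 but by less than 2-fold, and 27 were lower in that way. Another 18 were higher and 13 lower by at least 2-fold without reaching that p.

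With no limit on fold, the members differed in both directions. At an adjusted p below 0.05 (limma), 281 members (23.5%) were higher and 135 (11.3%) lower with HOM fathers, compared with 12.3% and 8.69% of all tested probes. The lowest HOM father array exceeded the highest HET father array for 302 members (25.2%), and the HOM father arrays were all below the others for 186 (15.5%). In the whole set of tested probes those shares were 14.1% above and 13.0% below. The lower side of the members was thus closer to the background than the higher side. NM_ probes leaned the other way, with 1241 (6.61%) higher and 1944 (10.3%) lower at that p.

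Since dim probes moved more than bright ones, members were set beside NM_ probes of the same mean signal, in 14 steps of 1 log2 unit. From -4 to -3 the median difference was 0.38 for 130 members and 0.04 for 1556 NM_ probes, and 13 members (10%) and 18 NM_ probes (1.16%) were called. From -5 to -4 the medians were 0.33 and 0.14, and 14 of 128 members and 18 of 1208 NM_ probes were called. The gap between the medians remained at 0.24, 0.25 and 0.23 in the next 3 steps, from -3 up to 0. In these steps 7 of 97, 5 of 88 and 7 of 76 members were called. The NM_ probes there had 11 calls of 1756, 19 of 1901 and 4 of 2052. From 0 to 1 the gap was 0.05 and 2 of 70 members were called. From 1 to 2 it was 0.13, with 2 of 52 called. Above 2 the gaps lay between -0.01 and 0.06, and no member was called higher. The step below -5 held only 11 members, none of them called.

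Member medians lay above NM_ medians in 13 of the 14 steps. Below a mean signal of 0, 69.2% of the tested members and 49.8% of NM_ probes had a difference above 0. There 46 of 530 members (8.68%) were called, compared with 76 of 8552 NM_ probes (0.889%). At 0 or above the figures were 5 of 668 members (0.749%) and 5 of 10233 NM_ probes (0.0489%). With the steps weighted by the number of members in each, 0.509% of NM_ probes were called, compared with 4.26% of members. Over all tested probes the median difference was -0.02, over tested members 0.01 and over NM_ probes -0.05. Median scaling, which moved all tested probes by -0.19, turned the members' median to -0.18. Weighted in the same way, members exceeded NM_ probes by 0.13.

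The gap between the father groups at low signal did not rest on 1 embryo. In the steps from -5 to 0, the deviation of members from their own mean over all arrays exceeded that of NM_ probes by 0.08, 0.13, 0.11 and 0.18 on HOM father replicates 1 to 4. On HET father replicates 1 to 4 it was below that of NM_ probes, by -0.12, -0.18, -0.13 and -0.09. The groups did not overlap. Deviations from a mean over all arrays largely balance between the groups by construction. The spread between replicates was like that of NM_ probes in these steps, with a median SD within groups of 0.30 and 0.32 from -5 to -4 and of 0.13 and 0.12 from -1 to 0.

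The 3 called members undetected with HET fathers have only a limit, and no p is given for them because the filter admitted them through the HOM father arrays. The signal of A_55_P2170599 was -3.17, -3.26, -3.22 and -3.29 with HOM fathers and -6.05, -6.76, -6.97 and -6.93 with HET fathers. The HOM father arrays lay close together, and no HET father array was well above background. The probe was at least 3.27-fold higher with HOM fathers. This limit sets each dim array at the lowest signal called well above background on it. A_55_P2034049 had group means of -3.89 and -5.78 and was at least 2.03-fold higher. A_55_P1969242 had means of -4.23 and -5.41 and was at least 1.57-fold higher, a limit under the 2-fold that its fitted difference had passed. A_55_P2017001, detected in the same pattern, had means of -4.40 and -5.71 and was not called.

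Among members measured on all 8 arrays, A_55_P1970536 rose most. It read -0.94, -1.06, -1.07 and -1.08 with HOM fathers and -3.60, -4.05, -3.90 and -3.93 with HET fathers, 7.13-fold apart. The difference was 2.83 ± 0.10 (SE, limma adjusted p = 2.64e-05), far outside the spread of either group. In the study's annotation this probe lies in a retroposed copy of *Rps2*, which encodes a protein of the small ribosomal subunit. A_55_P2049976, annotated to a copy of *Hspe1*, the mitochondrial chaperonin HSP10, read -0.14, -0.13, -0.34 and -0.08 with HOM fathers. With HET fathers it read -2.57, -3.12, -2.92 and -2.77, a 6.37-fold difference (limma adjusted p = 3.32e-05).

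Of the 10 members with the largest rise on all arrays, 4 were annotated to copies of *Rpl7a*, a large ribosomal subunit protein gene. A_55_P2057976 averaged -0.91 ± 0.06 with HOM fathers and -3.35 ± 0.22 with HET fathers (SD, n = 4). A_55_P2095010 averaged 1.20 ± 0.18 and -1.23 ± 0.06. A_55_P2111563 averaged -1.95 ± 0.13 and -4.29 ± 0.20. A_66_P108474 averaged 0.86 ± 0.19 and -1.27 ± 0.14. The father differences of the 4 probes were close, at 2.43, 2.42, 2.33 and 2.13. The limma adjusted p was 5.84e-05 or lower for each.

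A_55_P2131433, annotated to a copy of *Set*, a histone chaperone and phosphatase inhibitor gene, read -0.39, -0.11, -0.05 and -0.14 with HOM fathers. It read -2.29, -2.35, -2.26 and -2.31 with HET fathers, a 4.37-fold difference (limma adjusted p = 2.64e-05). A_55_P2097072, annotated to a copy of the ribosomal protein gene *Rpl23a*, averaged 0.02 ± 0.13 and -1.94 ± 0.11 (3.89-fold). A_55_P2186450 and A_55_P1993365 had no such annotation. The first averaged -2.04 ± 0.06 and -4.03 ± 0.41, a difference of 1.99 (limma adjusted p = 0.000509). A_55_P1993365 was far more uneven between embryos. Its signals were 2.22, 1.60, 2.43 and 2.79 with HOM fathers and 0.65, 0.37, -1.01 and -0.14 with HET fathers. The difference was 2.29 ± 0.39 (SE, limma adjusted p = 0.00621), and with any 1 of 5 single arrays left out it no longer passed, with limma adjusted p from 0.0141 to 0.0204.

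The study named 17 members in all as lying in retroposed copies, of 13 parent genes. That annotation was made for probes called on these same embryos, so that all 17 being called higher is not independent evidence of direction. Their differences ran from 1.06 to 2.83 with a median of 1.83. What the rule did not use was the parent genes themselves, each of which had named probes on the arrays. Of 41 probes for the 13 parent genes none was called, 31 had a difference below 0, and the differences ran from -0.35 to 0.34 with a median of -0.10. At an adjusted p below 0.05, 1 parent probe was higher and 7 were lower with HOM fathers. The parent probes had a median signal of 6.42 and the 17 members a median of -1.51, and levels of different probes also depend on how strongly each binds. Bright NM_ probes had father differences below 0 as well, with medians of -0.11, -0.11 and -0.10 in the signal steps from 5 to 8. The parent median of -0.10 was close to these, and a fall of the parent genes as a set was not tested. NM_ probes of any signal leaned the same way at the 0.05 limit, with 10.3% lower and 6.61% higher.

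Parent probes are given gene by gene, beside members that were listed because they had already been called on these embryos. The 4 probes of *Rpl7a* had differences from -0.24 to 0.21 (lowest limma adjusted p = 0.0595). *Rps2* had a pair of parent probes at -0.08 and -0.06, while the second member annotated to it, A_55_P1971137, rose by 1.40 (limma adjusted p = 0.000174). For *Gapdh*, a glycolytic enzyme gene, 7 parent probes ran from -0.35 to -0.09 (lowest limma adjusted p = 0.00915). Those at -0.35, -0.28, -0.25 and -0.24 were among the parent probes lower at an adjusted p below 0.05 (limma). The others lower at that limit were of *Rpl13* and *Rpl30*. A_66_P123603, annotated to a copy of *Gapdh*, rose by 1.44 (limma adjusted p = 7.37e-05). *Hspe1* parent probes ran from -0.18 to 0.34, and the highest of these, A_55_P1953063, was the parent probe higher at an adjusted p below 0.05 (limma adjusted p = 0.0148). *Set* parent probes ran from -0.26 to 0.11, and those of *Rpl23a* were at -0.18 and -0.11.

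The remaining annotated members are given by the role of the parent gene. A_55_P2098727 (copy of *Rpl13*) rose by 1.83, A_55_P2080902 (*Rps6*) by 1.66 and A_55_P2064412 (*Rpl30*) by 1.15, all annotated to ribosomal protein genes. Their parent probes ran from -0.27 to 0.08, from -0.12 to -0.01 and from -0.27 to -0.12. Proteasome subunits *Psma6* and *Psma2* were represented by A_55_P2179069, which rose by 1.55, and A_55_P2182921, which rose by 1.06, and their only parent probes were at -0.16 and -0.11. A_55_P2023480 (copy of the RNA-binding protein gene *Hnrnpa3*) rose by 1.64, with 7 parent probes from -0.12 to 0.13. A_55_P1982449 (copy of *Hmgn5*, a nucleosome-binding protein gene) rose by 1.38, with parent probes at 0.06 and 0.04. The limma adjusted p was 0.000500 or lower for each of these members. The other 34 called members had no retroposed-copy annotation.

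A_55_P2028847 was the 1 member called lower in the comparison above. It read 2.91, 3.29, 2.99 and 3.06 with HOM fathers and 3.80, 3.98, 4.68 and 4.84 with HET fathers. The groups did not overlap, but HET father replicates 3 and 4 stood well above replicates 1 and 2. The difference was -1.26 ± 0.24 (SE, limma adjusted p = 0.00956). Without those 2 embryos, whose sample identifiers start with numbers unlike the others, it was -0.83 and was no longer called (limma adjusted p = 0.0179), and the call was lost under 14 alternatives in all, among them each of 7 single arrays left out. Of the members called higher, 31 were again among 32 called without those 2 embryos.

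To see how members varied among single embryos, the 132 members detected on all arrays with an SD over 0.5 across them were grouped by the correlation of their profiles. These groupings were made after the values were seen, rest on 8 points each, and carry no test. Of the 132, 94 fell into 4 groups of 5 or more. In 35 members, which included 16 of the 17 with a retroposed-copy annotation and 28 called higher, the mean deviation was 0.72, 0.78, 0.72 and 0.76 with HOM fathers. With HET fathers it was -0.56, -0.90, -0.74 and -0.77. Father differences in this group ran from 0.88 to 2.83, and all 35 had an adjusted p below 0.05 (limma). Members called for a rise with little spread within groups were bound to correlate, so their falling together is not a separate result. Named probes with a like profile (Pearson r of at least 0.95 over the 8 arrays with the group's mean) came to 205, of which 79 were lincRNA intervals and 55 NM_ probes. Among all 29717 tested probes 18785 were NM_ probes. The share of lincRNA intervals among tested probes is not given here, so the 79 cannot be read as an excess. The profile follows the father groups, so that probes matching it also differed by father. The NM_ probe most like it was of *Olfr319*, an olfactory receptor gene, at r = 0.997.

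A second group, of 36 members that included A_55_P2028847, was moderately bright, with a median signal of 3.45. Its mean deviation was -0.65, -0.15, -0.53 and -0.47 with HOM fathers and -0.07, -0.04, 0.87 and 1.04 with HET fathers. HET father replicates 3 and 4 were thus the high samples, while replicates 1 and 2 of that group were close to HOM father replicate 2. Differences between fathers ran from -1.26 to -0.61, 18 of the 36 had an adjusted p below 0.05 and 1 was called. Of the 93 members with a signal from 3 to 4, 23 were in this group. Without them the lower quartile of the father difference in that step was -0.12 in place of -0.70. Trophoblast and decidua markers were lowest on the same HET father replicates 3 and 4, at 0.597 and 0.210, and stood at 5.03 and 4.76 on replicates 1 and 2. On HOM father replicates 1 to 4 they were at 1.73, 21.8, 24.2 and 3.86. Among those 4 arrays the markers and this group were both lowest on replicate 1. The part of the markers in this pattern was not tested.

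Named probes with the profile of those 36 members were few, 17 in all, of which 12 were NM_ probes. The most alike were a probe of *Gcm1*, a trophoblast transcription factor gene (r = 0.992), 1 of *Pigr*, the polymeric immunoglobulin receptor gene (r = 0.988), and 1 of *Dcc*, the netrin receptor gene (r = 0.985). A second *Gcm1* probe (r = 0.984) and probes of *Gab3* (r = 0.984) and *Rhox8* (r = 0.982) followed. The remaining probes of these genes were well above background on at most 1 array or lacked the profile. *Gcm1* A_55_P2154107, at r = 0.992, read 4.11 and 4.29 on HET father replicates 3 and 4 and 3.22 and 3.15 on replicates 1 and 2. *Gcm1* A_55_P1989813 read -0.22 and -0.16 on HET father replicates 3 and 4 and -0.15 and -0.59 on replicates 1 and 2. *Dcc* had 1 probe with the profile and a pair that was well above background on no array. *Rhox8* A_55_P2130725 had an SD of 0.17 over the 8 arrays, compared with 0.76 for A_55_P1981829.

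Another group, of 18 members, was bright, with signals from 2.50 to 6.02, and varied between embryos across both father groups. Its mean deviation was 0.49, -0.20, 0.37 and 0.70 with HOM fathers and 0.45, 0.12, -1.30 and -0.63 with HET fathers. The lowest samples were again HET father replicates 3 and 4, and the groups overlapped. None of the 18 was called, none had an adjusted p below 0.05, and their father differences ran from 0.43 to 1.21. Correlations between pairs of these members over the 8 arrays had a median of 0.993.

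Of 23 named probes with this profile, 3 were NM_ probes and all 3 were of *Hmgb1*, which encodes an abundant chromatin-associated high mobility group protein. *Hmgb1* had 7 probes on the array. A_55_P2131483, the most alike (r = 0.999), read 4.60, 3.88, 4.51 and 4.86 with HOM fathers and 4.52, 4.27, 2.73 and 3.47 with HET fathers. A_55_P2082986 and A_55_P2025153 followed at r = 0.986 each. The other 4 *Hmgb1* probes were far more even across the same embryos. Their SD over the 8 arrays was 0.05 for A_55_P2002689, 0.10 for A_55_P2013501, 0.11 for A_55_P2018283 and 0.09 for A_55_P2032708, compared with 0.61 to 0.71 for the 3 probes that shared the members' profile. Probes of 1 gene thus disagreed, and the 18 members moved with 1 set of them.

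The last group held 5 members, of which A_55_P1993365 and A_66_P113884, the latter named after its values were seen, were called. The mean deviation was 1.03, 0.31, 1.00 and 1.28 with HOM fathers and -0.11, -0.64, -1.70 and -1.16 with HET fathers. HOM father replicate 2 was the lowest of its group, and HET father replicates 3 and 4 were the lowest of all.

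Sex gave a comparison that slide did not touch, since each slide held 2 female and 2 male embryos. No member was called by sex (limma, father as covariate, n = 4 and 4), and 0.0606% of all tested probes were. At an unadjusted p below 0.05 there were 44 members (3.67%), compared with 5.22% of all tested probes. The lowest adjusted p was that of A_55_P1991377, which was named after its values were seen. It was higher in females by 0.65, with means of 6.52 and 5.87 (limma adjusted p = 0.0145). Females read 6.33, 6.44, 6.68 and 6.64, and males 5.68, 5.82, 5.93 and 6.04, without overlap. No member was called for the interaction of father and sex, and 0% of all tested probes were. At an unadjusted p below 0.05 there were 45 members, and the lowest member adjusted p was 0.424 (limma).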

How the data were processed

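The scanner tables deposited by the authors hold 1 intensity per spot, made with Agilent Feature Extraction 11.0.1.1, which subtracts background and sets a floor, with no scaling between arrays. The deposited series table repeats these intensities to within 0.497%. Other deposited values are spot marks of 0 or 1. Outlier spots were left out, log2 intensity was set against the array's 75th percentile and spots of a probe were averaged. Saturated spots numbered 0. Tests were limited to probes both well above background and not under the 20th percentile on at least 4 arrays. limma 3.58.1 in R 4.3.3 (lmFit, eBayes, two-sided) was applied to all 29717 tested probes with Benjamini-Hochberg adjustment, and the script was tested on simulated data. Probes were named through RefSeq accessions, used here with a GRCm38.p6 table for names only. The array count limits precision. The labels do not tie embryos to sires, so p-values measure spread between these samples.

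Members and lists were chosen with earlier results of these data known. Named members are the 10 largest rises and falls among called members detected on all arrays, up to 5 per direction with only a limit, the 5 brightest, those with a retroposed-copy annotation, and 2 from earlier results. Alternatives were other background correction (normexp on the median signal, as the mean signal was not used here), scalings, filters, variance models, blocks and left-out arrays.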

Additional observations from a re-analysis of the deposited data

Results flagged for a closer look

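Within a father group, 60 sets of 4 values (28 named members, the share of members well above background and their median signal) were examined for a single sample far from the others, by the gap to its neighbour as a share of the group's range. Chance gives about 1 in 20 such sets, and 3 passed Dixon's limit for groups of 4. For A_55_P1970536, HOM father replicate 1 read -0.94 and the others from -1.08 to -1.06 (gap 0.847 of the range). For A_55_P2057976, HET father replicate 1 read -3.02 and the others from -3.50 to -3.42 (0.835). For A_55_P2182921, HOM father replicate 4 read 0.92 and the others from 0.74 to 0.76 (0.913). In each case the father difference was over 1 log2 unit and the gap was under 0.5. No member was called for the interaction of father and sex.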

How the results depend on the processing

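Counts of members called by father are given as higher and lower with HOM fathers. Normexp background correction gave 31 (26 higher, 5 lower), detection on all 8 arrays 31 (30 and 1), and omission of HET father replicates 3 and 4, chosen after seeing the data, 32 (32 and 0). With array position as a block, which left 2 residual degrees of freedom, 0 were called higher or lower in total by limma (426 members at an unadjusted p below 0.05), though 48 had an adjusted p below 0.05 and at least 2-fold. Median scaling moved the median of all tested probes by -0.19, the members' median to -0.18, and the calls to 35 higher and 10 lower (77.8% higher, compared with 98.0%). The excess of members over NM_ probes of the same signal was 0.10 with normexp and 0.057 with no filter. Leaving out each array in turn gave 41 to 55 calls, 41 to 54 of them higher, a members' median of -0.0039 to 0.03, an excess over NM_ probes of 0.10 to 0.14 and 0 members called for the interaction. By sex it gave 0 to 1, the 1 being A_55_P2183257 without HOM father replicate 3. Quantile scaling, kept outlier spots, a variance trend, the deposited table, sex as covariate and the identifier block left the count within 1.5 times. Labels share replicate numbers between groups, and deviations of same-numbered embryos correlated at 0.19, -0.09, -0.13 and 0.15. These values cannot show whether the numbers pair embryos, and the labels state no pairing. With the replicate block 34 members were called higher and 0 lower, the medians were unchanged at 0.01 and 0.13, and 0 were called by sex. Of 584 values for 28 named members, 519 kept direction and call, 55 lost the call (23 of them with array position, 14 for A_55_P2028847 and 9 for A_55_P1993365), and 10 changed sign, all among the brightest 5, which were not called. These were A_55_P1962466 at -0.061 with normexp, -0.16 with median scaling, -0.027 without HOM father replicate 4 and -0.014 without HET father replicate 2 (up to 0.058 when other arrays were left out). A_55_P2090953 was at 0.042 and A_55_P2186787 at 0.089 with quantile scaling. A_55_P2186787 was also at 0.0062 with array position, 0.0034 without HOM father replicate 3, 0.0068 without HET father replicate 3 and 0.029 without HET father replicates 3 and 4, and as low as -0.071 when a single array was left out. The causes were not tested. Signal over background limits the 1546 members that were not tested.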
